A study of Homo sapiens with 8 samples.

Results

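The matrix metalloproteases (MMPs), the membrane-anchored ADAM proteins, the secreted ADAMTS proteases and their tissue inhibitors, the TIMPs, were examined in RD cells with and without silencing of PROX1. A gene was counted as a member where it is protein-coding and its symbol is MMP, ADAM, ADAMTS or TIMP followed directly by a digit. This gave 67 genes (24 with an MMP symbol, 20 ADAM, 19 ADAMTS and 4 TIMP) of 19817 protein-coding genes and 58302 genes in all. One of them, MMP24OS, meets the rule by its letters alone, since it lies on the opposite strand of MMP24 and is no protease. RD is an established human cell line of rhabdomyosarcoma, a tumour of the skeletal muscle lineage. The silenced cells gave 4 libraries of RD cells with a short hairpin RNA against PROX1, a homeobox transcription factor (shPROX1), and the control gave 4 libraries of RD cells with a scrambled hairpin. The series design calls the 4 libraries of each group biological replicates, and p-values measure the spread between these libraries. Both groups carry a hairpin, no untreated cells were analysed here, and the sources used here give neither the hairpin sequence nor the number of hairpins.

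All 3 protease families hold a zinc ion in the active site and are made as inactive precursors. MMPs cut collagens and other matrix proteins, and some are anchored in the plasma membrane, where MMP14 also activates proMMP2. ADAMs release the outer domains of membrane proteins such as growth factor precursors and Notch receptors, while a part of the ADAM family has lost the catalytic residues and acts in adhesion or as ligands. ADAMTS proteases are secreted and cut proteoglycans, procollagens and other matrix proteins. TIMPs bind the active site of MMPs and of some ADAM and ADAMTS proteases. In muscle, ADAM12 and ADAM19 were first described in fusing myoblasts (their older names are meltrin alpha and meltrin beta).

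Most members share a sequence feature that the rule did not read, the codons of the zinc-binding motif. This motif has 3 histidines that hold the zinc, a glutamate that takes part in catalysis and, in most of these enzymes, a glycine between the histidines. A search of the longest annotated coding sequence of each gene (GENCODE 29) for these residues in their fixed spacing, with glycine, asparagine or serine allowed at the glycine's place, found the motif in 54 of 67 members (80.6%), against 67 of 19565 protein-coding genes (0.342%). It was found in 19 of 19 ADAMTS members, in 23 of 24 with an MMP symbol (all but MMP24OS), in 12 of 20 ADAMs and in 0 of 4 TIMPs. The 12 ADAMs were the ones listed as proteases, and none of the 8 ADAMs listed as lacking protease activity held it. This split was fixed in advance, since ADAMs without the catalytic residues are the ones listed as lacking activity. The protease families are likewise known by their zinc site, so the counts describe the families and are no independent result. Of the 54 genes with the motif, 49 had the glycine. The coding sequences of 7 members of the 3 families are shown, because they include members that rose, members that fell and, for MMP14, an abundant member that did not pass the test; capitals mark the codons of the 3 histidines, the glutamate and the glycine, and each run of 33 bases is written on the strand of its gene.
ADAMTS6: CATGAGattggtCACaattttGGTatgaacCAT
ADAMTS12: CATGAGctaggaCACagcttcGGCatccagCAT
ADAMTS7: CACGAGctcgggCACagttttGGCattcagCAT
ADAM19: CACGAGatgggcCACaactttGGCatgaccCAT
ADAM17: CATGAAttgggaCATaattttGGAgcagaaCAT
MMP15: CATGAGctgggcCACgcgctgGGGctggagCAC
MMP14: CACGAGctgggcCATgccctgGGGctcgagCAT
The stretch lies within 1 exon in ADAM19 (chr5:157505734-157505766, minus strand, GRCh38), ADAM17 (chr2:9510078-9510110, minus strand), MMP15 (chr16:58040563-58040595, plus strand) and MMP14 (chr14:22843283-22843315, plus strand). In ADAMTS6 (chr5:65300116-65329394), ADAMTS12 (chr5:33649682-33658200) and ADAMTS7 (chr15:78788359-78789705), all on the minus strand, an intron splits it, so the coordinates span that intron.

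Each library held 3747090 to 4865161 counts over all genes, and 3 counts, the most that a count of 0 allows, came to 0.617 to 0.801 counts per 1000000 counts (CPM) in the deepest and the shallowest library. PROX1 averaged 8.79 ± 1.15 CPM in shPROX1 and 18.6 ± 2.58 CPM in control (SD, n = 4 each), with 33, 42, 34 and 35 counts against 85, 66, 69 and 105, and its groups did not overlap (p = 0.0286 by an exact permutation test, two-sided, which with 70 arrangements can go no lower). Markers of the labelled lineage were present, since all 6 muscle genes looked at (DES, MYOD1, MYOG, PAX7, CHRNA1 and CDH15) passed the filter on low counts. Their summed level was 1137 to 1232 CPM in shPROX1 and 1357 to 1393 CPM in control, and MYOG, a regulator of muscle differentiation, averaged 47.8 ± 2.69 CPM in shPROX1 and 121 ± 5.27 CPM in control. MYOG had the largest fold change of the 6. MYOD1 (72.2 ± 4.49 CPM in shPROX1, 71.2 ± 7.72 CPM in control) and CHRNA1 (490.5 ± 8.49 and 495 ± 22.4) were level within their spread. DES (473 ± 21.0 and 545 ± 16.4), PAX7 (31.1 ± 2.23 and 42.0 ± 0.881) and CDH15 (72.1 ± 6.55 and 100.1 ± 6.33) were lower in shPROX1. Of 5 fibroblast markers, THY1 alone passed the filter (99.0 ± 1.81 CPM in shPROX1, 73.1 ± 6.91 CPM in control), and the summed list lay at 97.9 to 103 CPM in shPROX1 and 69.0 to 84.2 CPM in control, while PDGFRA, LUM, DCN and FAP held at most 12 counts over the 4 libraries of a group. Of 5 endothelial markers TEK alone passed, with list sums of 40.9 to 45.3 CPM in shPROX1 and 38.7 to 52.5 CPM in control, and CDH5 was at 0. Of 5 epithelial markers CLDN4 alone passed and was higher in shPROX1 (list sums of 6.52 to 8.81 CPM in shPROX1 and 2.47 to 5.81 CPM in control), with KRT5 and KRT14 at 0. None of 5 immune markers passed (1.16 to 2.40 CPM in shPROX1, 1.03 to 1.65 CPM in control), and CD3E was at 0. The part of these marker differences in the results was not tested, and in bulk RNA fewer cells of a kind and less RNA per cell cannot be told apart. On the second principal component control replicate 1 stood apart from the other 7 libraries (13.2, against -6.08 to 2.86).

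Of the 67 members, 28 passed the filter on low counts and were tested. The edgeR quasi-likelihood test with Benjamini-Hochberg adjustment over 12392 genes called 35.2% of all tested genes, 17.3% as higher and 17.9% as lower in shPROX1. Among the 28 members tested, 9 were higher (32.1%), 5 were lower (17.9%) and 14 did not pass the threshold of 0.05. The members' median log2 change (shPROX1 minus control) was -0.01, which was also the median of all tested genes. The members that rose were ADAM9, ADAM19, ADAMTS1, ADAMTS6, ADAMTS12, ADAMTS20, MMP16, TIMP1 and MMP24OS, and those that fell were ADAM17, ADAM22, ADAM28, ADAMTS7 and MMP15. By family, 4 ADAMTS members rose and 1 fell of 8 tested, 2 ADAMs rose and 3 fell of 10, 2 members with an MMP symbol rose and 1 fell of 7, and 1 TIMP rose of 3. MMP15 passed the filter through the control group alone, since none of its shPROX1 libraries reached the 2.39 CPM that the filter asks of 4 libraries. Its call therefore gives no support to the counts of members that fell. ADAM28 and ADAMTS7, which fell, and the uncalled MMP23B reached 2.39 CPM in 4 control libraries but in only 3 shPROX1 libraries. The shPROX1 group alone would not have carried them past the filter. The calls of ADAM28 and ADAMTS7 therefore give no support to the counts of members that fell either. All remaining tested members reached 2.39 CPM in every library of both groups.

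**Figure D1:**
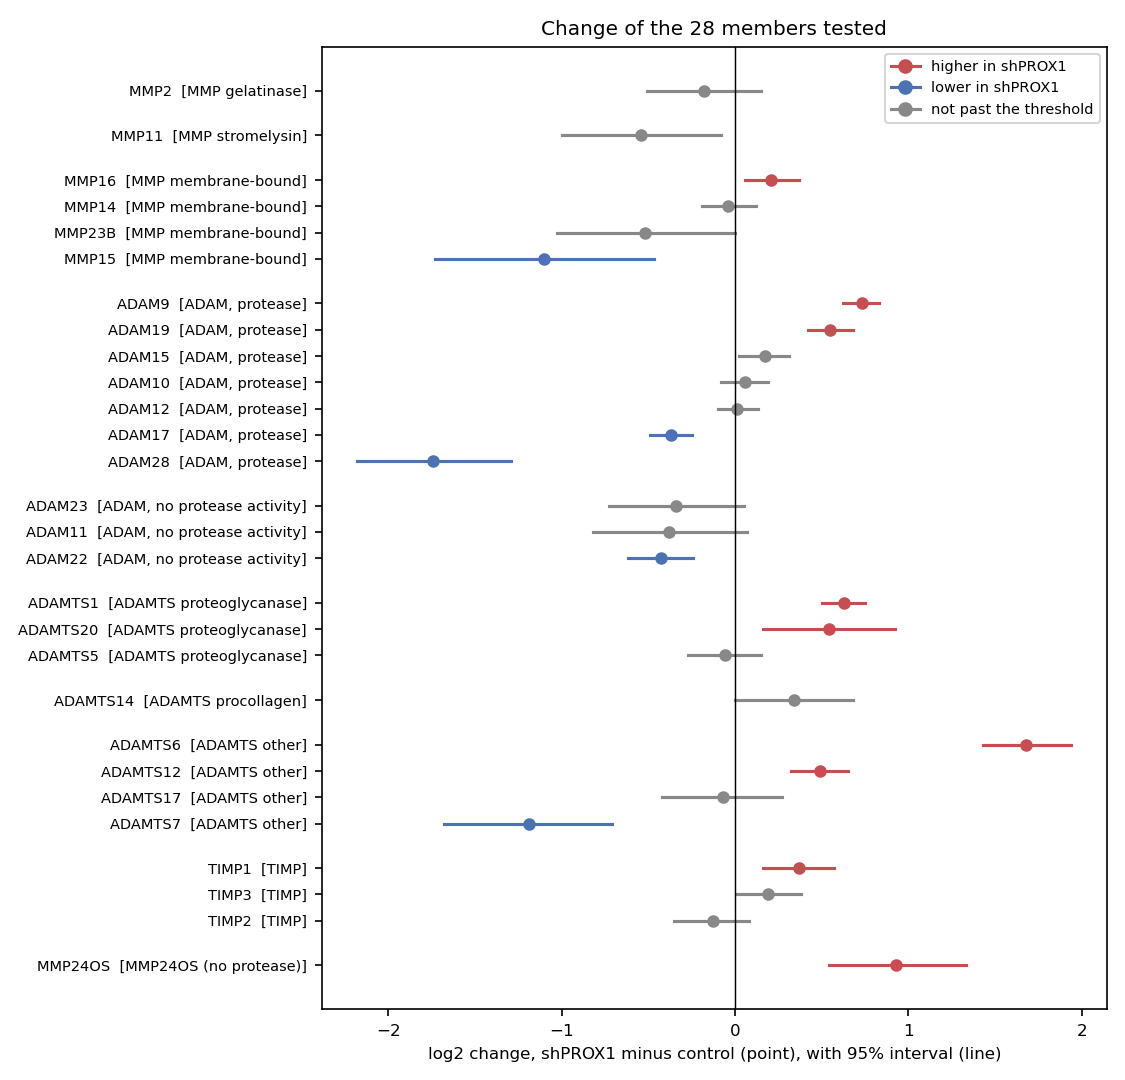
Log2 change (shPROX1 minus control) of the 28 tested members, grouped by role; points are edgeR estimates, lines are 95% intervals, and colour gives the call at an adjusted p of 0.05. ADAMTS6 lies farthest to the right at 1.68 and ADAM28 farthest to the left at -1.74, and most members lie within 1 log2 unit of 0.

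Among ADAMs with protease activity, ADAM9 rose, ADAM19 rose, ADAM17 fell and ADAM28 fell. ADAM9, a widely expressed sheddase on chromosome 8, had 557, 565, 500.4 and 535 CPM in the shPROX1 libraries, against 322, 348, 329.7 and 327 CPM in the control libraries. All shPROX1 libraries were above all control libraries, and the change was 1.65-fold (log2 change 0.73 ± 0.05 SE, 95% interval 0.62 to 0.83, edgeR adjusted p = 5.12e-11). ADAM19, which has been studied in neuregulin shedding and, in mice, in heart development, had 115, 127, 124 and 122 CPM in shPROX1, against 74.4, 89.5, 87.3 and 86.7 CPM in control. Its groups did not overlap, and it rose 1.46-fold (log2 change 0.55 ± 0.06, adjusted p = 2.48e-07).

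ADAM17, the main sheddase of tumour necrosis factor and of several ligands of the epidermal growth factor receptor, moved the other way. It had 98.5, 88.8, 92.6 and 86.0 CPM in shPROX1, against 118, 119, 126 and 118 CPM in control. Every shPROX1 library was below every control library, with a log2 change of -0.37 ± 0.06 (adjusted p = 2.17e-05). ADAM17 shares 12.3% of its exon bases with IAH1 on the opposite strand, and IAH1 did not pass the test (log2 change 0.07, adjusted p = 0.685). ADAM28, known from lymphocytes and from some carcinomas, had 4.42, 2.20, 4.0 and 3.25 CPM in shPROX1, against 13.4, 12.1, 13.1 and 9.04 CPM in control. Its groups did not overlap, and it was 3.33-fold lower (log2 change -1.74 ± 0.22, 95% interval -2.18 to -1.29, adjusted p = 1.14e-06), the largest fall of the 28 members tested. Only 3 of its shPROX1 libraries reached the 2.39 CPM of the filter, against 4 control libraries.

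The other ADAM proteases that were tested did not pass. ADAM10, the sheddase of Notch receptors and of N-cadherin, averaged 64.3 ± 1.65 CPM in shPROX1 and 62.8 ± 3.47 CPM in control (log2 change 0.06, 95% interval -0.08 to 0.19, adjusted p = 0.536). ADAM12 averaged 171 ± 7.59 CPM in shPROX1 and 172 ± 12 CPM in control (0.01, interval -0.10 to 0.13, adjusted p = 0.882). For both, the interval leaves room only for small changes in either direction. ADAM15 averaged 58.1 ± 3.92 CPM in shPROX1 and 52.6 ± 1.47 CPM in control (0.17, adjusted p = 0.0658), with overlapping groups. Without shPROX1 replicate 3, which had the lowest of the 4 shPROX1 values, ADAM15 passed (0.21, adjusted p = 0.0230).

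Of the ADAMs that lack protease activity, 3 of 8 were tested, and only ADAM22 was called lower (33.3%, against 17.9% of all tested genes). All 3 estimates were below 0, as was the median of all tested genes (-0.01), and 3 genes are too few to read as a trait of the group. ADAM22, a receptor of the secreted LGI proteins at synapses, had 30.5, 28.6, 32.6 and 37.0 CPM in shPROX1, against 40.7, 45.4, 41.6 and 48.1 CPM in control. Its groups did not overlap and it fell (log2 change -0.43 ± 0.09, adjusted p = 6.97e-04). The related ADAM23 averaged 7.79 ± 1.21 CPM in shPROX1 and 9.98 ± 2.35 CPM in control (-0.34, adjusted p = 0.166). ADAM11 averaged 5.60 ± 1.28 CPM in shPROX1 and 7.30 ± 1.65 CPM in control (-0.38, adjusted p = 0.185). For ADAM11 and ADAM23 the groups overlapped, and the 95% interval is -0.82 to 0.07 for ADAM11 and -0.73 to 0.05 for ADAM23.

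**Figure D2:**
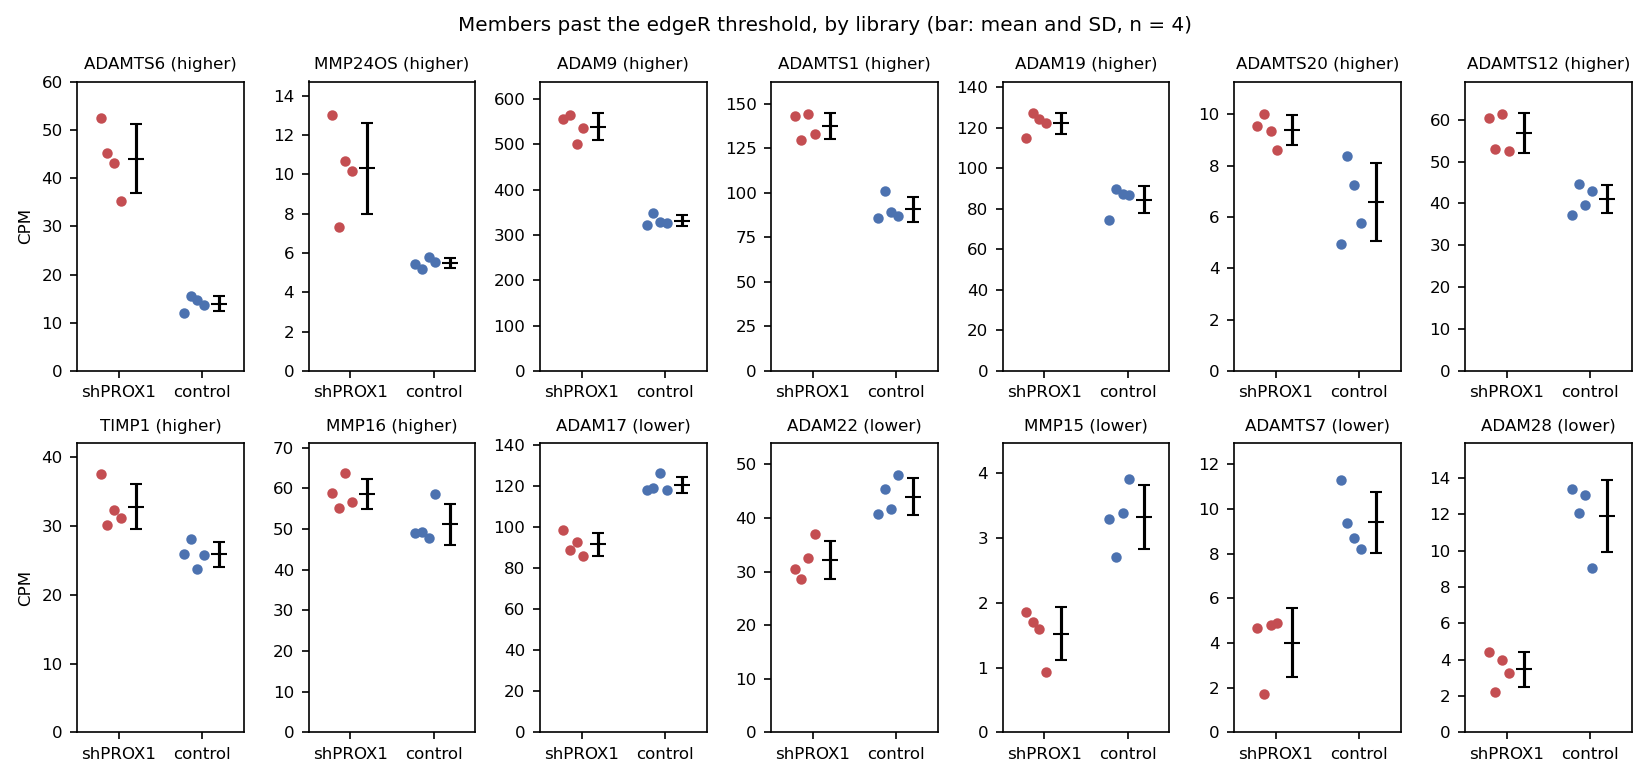
CPM in each library for the 14 members past the edgeR threshold, shPROX1 at the left and control at the right of each panel; bars are mean and SD of 4 libraries, and each axis starts at 0. The groups overlap in the MMP16 panel, where control replicate 4 (58.6 CPM) lies among the shPROX1 libraries, and in no other panel. The panels were chosen by the test on these same libraries, so little overlap follows from that choice. The share without overlap among all called genes is not given here.

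Among the ADAMTS proteases, ADAMTS6 showed the largest rise of the 28 members tested. It had 52.6, 45.3, 43.2 and 35.3 CPM in shPROX1, against 12, 15.5, 14.8 and 13.6 CPM in control. All shPROX1 libraries were more than double every control library, and the change was 3.21-fold (log2 change 1.68 ± 0.12, 95% interval 1.43 to 1.94, adjusted p = 2.73e-10). ADAMTS6, known from fibrillin matrix and, in mice, from heart development, lies on the minus strand of chromosome 5 (65148736 to 65481920, GRCh38).

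ADAMTS12 and ADAMTS7 are close relatives that both cut cartilage oligomeric matrix protein, and they moved in opposite directions. ADAMTS12 had 60.5, 52.9, 61.4 and 52.5 CPM in shPROX1, against 37.2, 44.6, 39.7 and 43.0 CPM in control. It rose 1.40-fold with no overlap between groups (log2 change 0.49 ± 0.08, adjusted p = 4.22e-05). ADAMTS7 had 4.66, 1.71, 4.80 and 4.88 CPM in shPROX1, against 11.3, 9.37, 8.71 and 8.22 CPM in control. Every shPROX1 library was below every control library, with replicate 2 the lowest at 7 counts, and the gene was 2.29-fold lower (log2 change -1.19 ± 0.23, adjusted p = 3.35e-04). Only 3 of its shPROX1 libraries reached the 2.39 CPM of the filter, against 4 control libraries. Near-identical copies of ADAMTS7 are annotated, and reads that match several of them may have been split between them or left out. Counts of the copies cannot show reads that were left out. The copies ADAMTS7P1 and ADAMTS7P3 held 2 counts or fewer in each group, and ADAMTS7P4, with 69 counts in shPROX1 and 57 in control, did not pass the test (log2 change 0.37 ± 0.26, adjusted p = 0.292).

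Of the 7 ADAMTS enzymes listed as cutting proteoglycans such as versican and aggrecan, 3 were tested. Of these, 2 were called higher (66.7%, against 17.3% of all tested genes), and 3 genes are too few to read as a trait of the group. ADAMTS1 had 143, 129.7, 144 and 133 CPM in shPROX1, against 85.7, 101, 89.0 and 86.9 CPM in control. It rose 1.54-fold with no overlap (log2 change 0.63 ± 0.06, adjusted p = 2.89e-08). ADAMTS20, known from pigment cell migration in mice, had 9.54, 10.0, 9.34 and 8.60 CPM in shPROX1, against 4.95, 8.38, 7.26 and 5.76 CPM in control. The lowest shPROX1 library (8.60 CPM) and the highest control library (8.38 CPM) were close, without overlap, and the rise was 1.46-fold (log2 change 0.54 ± 0.18, adjusted p = 0.0243). ADAMTS20 did not pass with DESeq2 (adjusted p = 0.109) or without either of shPROX1 replicates 1 and 2 or control replicates 1 and 4 (adjusted p of 0.0533 to 0.0781).

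ADAMTS5 (aggrecanase-2), the third tested gene of that group, averaged 50.9 ± 10.7 CPM in shPROX1 and 53.6 ± 3.94 CPM in control (log2 change -0.06, interval -0.27 to 0.15, adjusted p = 0.688). Its shPROX1 libraries were widely spread, at 42.6 to 66.5 CPM, and enclosed all control libraries. ADAMTS5 and ADAMTS1 are neighbours on chromosome 21 (26835747 to 26966513 for the pair), and of this pair only ADAMTS1 passed the test; whether their changes differ from each other was not tested. ADAMTS14, a procollagen N-proteinase, averaged 10.2 ± 0.707 CPM in shPROX1 and 8.15 ± 1.37 CPM in control (0.34, adjusted p = 0.113). ADAMTS17 averaged 8.66 ± 1.07 CPM in shPROX1 and 9.24 ± 1.19 CPM in control (-0.07, adjusted p = 0.772). Both had overlapping groups.

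Of the 7 membrane-bound MMPs 4 were tested, and 1 of them rose and 1 fell. That is 25.0% each, against 17.3% higher and 17.9% lower of all tested genes, and 4 genes are too few to read as a trait of the group. The one that fell is MMP15, which passed the filter through the control group alone, so its call gives no support to this count. MMP14 averaged 76.9 ± 6.01 CPM in shPROX1 and 80.3 ± 8.33 CPM in control and did not pass (log2 change -0.04, interval -0.19 to 0.12, adjusted p = 0.748). MMP16 had 58.9, 55.1, 63.8 and 56.7 CPM in shPROX1, against 49.0, 49.3, 47.7 and 58.6 CPM in control. Control replicate 4 lay within the shPROX1 range, so the groups overlapped; the gene passed with a small rise (log2 change 0.21 ± 0.08, adjusted p = 0.0324). MMP16 did not pass with DESeq2 (adjusted p = 0.101) or when any of shPROX1 replicates 1 and 3 or control replicates 1, 2 and 3 was left out (adjusted p of 0.0675 to 0.1).

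MMP15, another membrane-bound MMP, was near the depth limit. It had 1.86, 1.71, 1.6 and 0.93 CPM in shPROX1, against 3.30, 2.71, 3.39 and 3.91 CPM in control, which is 4 to 8 counts in each shPROX1 library and 11 to 19 in each control library. The groups did not overlap and the gene was 2.14-fold lower (log2 change -1.10 ± 0.30, adjusted p = 0.007), but DESeq2 did not call it (adjusted p = 0.0709). MMP23B, whose mean is below the 5 CPM set for naming uncalled members, averaged 3.87 ± 1.24 CPM in shPROX1 and 5.56 ± 1.14 CPM in control and did not pass (-0.52, adjusted p = 0.114); its near-identical copy MMP23A held no counts.

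Of the 16 secreted MMPs 2 were tested, and neither passed. MMP2 (gelatinase A) averaged 10.9 ± 1.67 CPM in shPROX1 and 12.6 ± 2.08 CPM in control (log2 change -0.18, interval -0.51 to 0.15, adjusted p = 0.401). MMP11 (stromelysin-3) averaged 4.92 ± 1.41 CPM in shPROX1 and 7.18 ± 1.45 CPM in control (-0.54, adjusted p = 0.0642), and it passed as lower without shPROX1 replicate 3 (-0.73) or without control replicate 3 (-0.67). No other secreted MMP passed the filter. MMP9 (gelatinase B) held 1 count in shPROX1 and 1 in control over 4 libraries each, MMP1 (interstitial collagenase) 3 and 2, and MMP13 (collagenase-3) 3 and 1. The 9 MMP genes of the cluster on chromosome 11 (102520508 to 102955734, GRCh38), which holds the collagenases MMP1, MMP8 and MMP13 and the stromelysins MMP3 and MMP10, together held 8 counts in shPROX1 and 4 in control. At this depth a change in these genes was not detectable.

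MMP24OS, the gene that is no protease, had 13.0, 7.34, 10.7 and 10.2 CPM in shPROX1, against 5.42, 5.18, 5.81 and 5.55 CPM in control. Its groups did not overlap and it was 1.91-fold higher (log2 change 0.93 ± 0.19, adjusted p = 5.43e-04). It shares 14.5% of its exon bases with MMP24, and since the sources used here do not give the strand setting of the counting, reads of the shared bases may belong to either gene. MMP24 itself held 20 counts in shPROX1 and 10 in control and was below the filter.

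Of the inhibitors, TIMP1 rose and TIMP2 and TIMP3 did not pass. TIMP1 had 37.5, 30.1, 32.3 and 31.1 CPM in shPROX1, against 25.9, 28.1, 23.7 and 25.7 CPM in control. The groups did not overlap, with a change of 1.29-fold (log2 change 0.37 ± 0.10, adjusted p = 0.00558). TIMP3, which stays bound to the matrix and inhibits ADAM17 as well as MMPs, averaged 42.8 ± 3.80 CPM in shPROX1 and 38.0 ± 4.38 CPM in control (0.19, adjusted p = 0.102); without control replicate 2 it passed (0.26, adjusted p = 0.0324). TIMP2, which together with MMP14 activates proMMP2, averaged 29.7 ± 3.57 CPM in shPROX1 and 32.9 ± 3.95 CPM in control (-0.13, adjusted p = 0.337). TIMP4 held 1 count in shPROX1 and 0 in control.

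The 39 members below the filter included 10 with no count in any of the 8 libraries (ADAM29, ADAM30, ADAMTS8, ADAMTS19, MMP3, MMP7, MMP8, MMP20, MMP26 and MMP27), 19 with 1 to 10 counts in all and 10 with more. The highest of the 39 was MMP17 at a mean of 2.43 CPM over all libraries, with 39 counts in shPROX1 and 43 in control. ADAM8, a sheddase of myeloid cells, had 5, 5, 7 and 2 counts in shPROX1, against 8, 11, 12 and 11 counts in control. Its groups did not overlap in CPM but all but touched, at 1.87 CPM in the highest shPROX1 and 1.88 CPM in the lowest control library. In an edgeR fit without the filter the log2 change of ADAM8 was -1.02 (adjusted p = 0.087). With a filter of at least 1 CPM in 4 libraries it was called lower. ADAM8 was singled out after its values were seen. ADAMTS10 held 26 counts in shPROX1 and 47 in control and did not pass in the fit without the filter (-0.74, adjusted p = 0.222).

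To compare levels between genes, counts were divided by exon length (RPKM, CPM per kilobase of exon). ADAM9 was the highest member in both groups, at 78.0 ± 4.16 RPKM in shPROX1 and 47.9 ± 1.64 RPKM in control. In shPROX1 the next were TIMP1 (21.3 ± 2.12 RPKM), ADAMTS1 (19.5 ± 1.02), ADAM12 (17.3 ± 0.769), MMP14 (17.2 ± 1.35) and ADAM19 (15.8 ± 0.694). Within this order TIMP1 and ADAMTS1 overlapped over libraries, as did ADAMTS1 and MMP14, ADAM12 and MMP14, and MMP14 and ADAM19. In control MMP14 (18.0 ± 1.87 RPKM), ADAM12 (17.4 ± 1.22) and TIMP1 (16.8 ± 1.17) followed ADAM9 and did not differ beyond their spread, with ADAMTS1 (12.8 ± 0.984) and ADAM17 (11.2 ± 0.337) below them. ADAMTS6 stood at rank 13 of 28 in shPROX1 (5.15 ± 0.83 RPKM) and at rank 18 in control (1.63 ± 0.179 RPKM), while ADAM28 stood at rank 27 in shPROX1 (0.371 ± 0.104 RPKM) and at rank 23 in control (1.27 ± 0.213 RPKM). MMP15 had the lowest mean in both groups (0.345 ± 0.0932 RPKM in shPROX1, 0.753 ± 0.111 RPKM in control). Its libraries overlapped those of ADAM28 and ADAMTS7 in shPROX1 and those of ADAMTS20 in control.

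**Figure D3:**
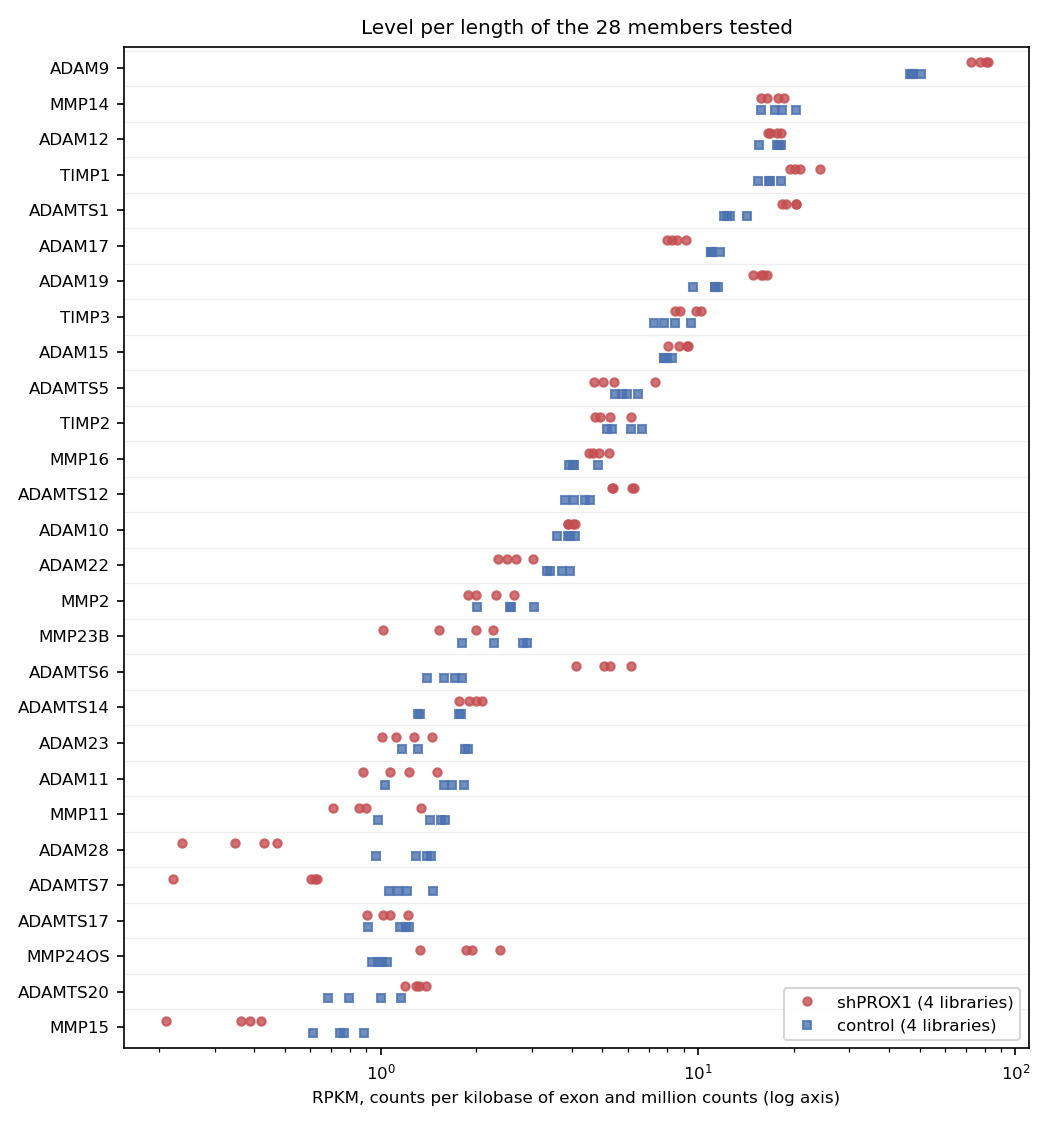
Level per exon length (RPKM, log axis) of the 28 tested members in each library, shPROX1 above control within each row, ordered by the control mean. ADAM9 stands apart at 78.0 RPKM in shPROX1 and 47.9 RPKM in control, and the other members spread from about 20 RPKM down to MMP15 at 0.345 RPKM in shPROX1 and 0.753 RPKM in control.

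The 67 members together took 1676 to 1732 CPM in the shPROX1 libraries and 1355 to 1438 CPM in the control libraries. The means were 1705 ± 23.1 CPM in shPROX1 and 1409.6 ± 39.2 CPM in control. Most of this gap lay in ADAM9, whose share of all member counts was 31.6% ± 1.61 in shPROX1 and 23.5% ± 0.606 in control. ADAMTS genes held 19.2% ± 1.23 of member counts in shPROX1 and 17% ± 0.517 in control, and genes with an MMP symbol 10.1% ± 0.367 in shPROX1 and 12% ± 1.08 in control. In summed CPM the MMP genes were level, at 172 ± 4.41 CPM in shPROX1 and 169.6 ± 12.3 CPM in control.

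Promoter sequences of 40 members were matched by symbol in a RefSeq table (GRCh38.p14), each with 250 bases before and 50 bases from the start of the gene on. They were searched on both strands for 3 letter patterns. TEAD factors are known to bind GGAATG. The AP-1 pattern is TGANTCA. The E-box that myogenic factors are known to bind is CAGCTG. The AP-1 and E-box patterns read alike on both strands. The TEAD letters occurred in 6 of 40 member promoters (15.0%) and in 14.0% of 27305 promoters, the AP-1 letters in 4 of 40 (10.0%) and 7.76%, and the E-box letters in 8 of 40 (20%) and 17.7%. Among the 10 called members with a promoter in the table, 5 held the TEAD letters (ADAMTS6, ADAMTS12, ADAMTS20, MMP24OS and ADAM17), that is 4 of 6 that rose and 1 of 4 that fell. Of the 10 uncalled members with a promoter, 0 held them. Over all genes with a promoter in the table, 11.8% of the genes that rose, 11.7% of those that fell and 10.1% of those not called held these letters. The numbers of members are small, and the split by call was looked at after the values were known.

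The promoters of the 3 ADAMTS genes that rose and hold the TEAD letters are shown with that of ADAM17, which holds them and fell. Each is written on the strand of its gene, with the searched patterns in capitals. ADAMTS6 is chr5:65481871-65482170, ADAMTS12 chr5:33891941-33892240, ADAMTS20 chr12:43552154-43552453 and ADAM17 chr2:9555781-9556080, all on the minus strand.
ADAMTS6: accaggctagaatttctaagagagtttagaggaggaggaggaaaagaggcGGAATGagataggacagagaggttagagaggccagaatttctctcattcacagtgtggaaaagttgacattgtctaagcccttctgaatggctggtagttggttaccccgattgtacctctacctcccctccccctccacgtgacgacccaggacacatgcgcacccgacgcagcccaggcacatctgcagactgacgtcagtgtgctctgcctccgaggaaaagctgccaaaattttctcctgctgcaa
ADAMTS12: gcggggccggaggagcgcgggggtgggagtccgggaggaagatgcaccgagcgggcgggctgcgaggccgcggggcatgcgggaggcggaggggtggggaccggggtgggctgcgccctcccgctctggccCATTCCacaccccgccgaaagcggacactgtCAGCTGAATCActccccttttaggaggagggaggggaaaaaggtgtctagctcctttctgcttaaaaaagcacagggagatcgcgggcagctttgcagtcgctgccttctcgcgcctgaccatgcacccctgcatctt
ADAMTS20: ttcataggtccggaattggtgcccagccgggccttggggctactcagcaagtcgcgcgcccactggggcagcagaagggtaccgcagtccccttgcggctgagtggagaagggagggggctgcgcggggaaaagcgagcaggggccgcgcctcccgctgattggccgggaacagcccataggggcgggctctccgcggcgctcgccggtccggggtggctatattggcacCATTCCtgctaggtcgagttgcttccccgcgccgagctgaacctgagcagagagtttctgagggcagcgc
ADAM17: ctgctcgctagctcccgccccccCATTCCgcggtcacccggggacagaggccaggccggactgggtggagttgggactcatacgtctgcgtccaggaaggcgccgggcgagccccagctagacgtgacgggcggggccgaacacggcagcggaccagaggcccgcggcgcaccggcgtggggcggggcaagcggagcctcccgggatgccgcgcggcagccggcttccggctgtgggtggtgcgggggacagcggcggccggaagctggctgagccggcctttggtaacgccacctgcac
Counted from the start, with -1 the last base before it, the TEAD letters began at -200 in ADAMTS6, -119 in ADAMTS12, -20 in ADAMTS20 and -227 in ADAM17. In ADAMTS12 an E-box at -88 and the AP-1 letters at -84 overlapped and form the longer run of capitals. A match of letters is a description of the sequence and says nothing of binding in these cells.

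Genes around the metalloproteases were read from 4 lists. The lists were chosen with earlier results of these data known, so their shares are a description and give no support to a shift of a list. Of related metalloproteases and ADAMTS-like proteins, 7 of 15 genes were tested, 4 were higher (57.1%) and 1 was lower (14.3%), with a median log2 change of 0.32. Over all tested genes 17.3% were higher and 17.9% lower, with a median of -0.01. ADAMTSL1, a matrix protein that resembles ADAMTS enzymes but has no protease domain, averaged 8.71 ± 1.58 CPM in shPROX1 and 2.10 ± 0.630 CPM in control (log2 change 2.07 ± 0.25). PAPPA, a metalloprotease that cuts binding proteins of insulin-like growth factors, averaged 10.7 ± 1.14 CPM in shPROX1 and 3.02 ± 2.00 CPM in control (1.87 ± 0.27). Their groups did not overlap, but both genes passed the filter through the shPROX1 group, in which they are high: the 2.39 CPM were reached in 4 shPROX1 libraries and in 1 control library for ADAMTSL1 and 2 for PAPPA, so their calls give no support to the count above. BMP1, the procollagen C-proteinase, rose less (0.35 ± 0.10), as did the ADAMTS-like THSD4 (0.32 ± 0.12, overlapping groups), and the BMP1 relative TLL2, looked at after its value was known, fell (-0.25 ± 0.05). ADAMTSL5 averaged 2.76 ± 1.19 CPM in shPROX1 and 3.37 ± 1.16 CPM in control and did not pass (-0.24, adjusted p = 0.604).

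Of genes that activate, carry, inhibit or clear these proteases, 18 of 21 were tested, 3 were higher and 3 were lower (16.7% each, close to the shares over all tested genes; median log2 change -0.05). FURIN, the convertase that removes the inhibitory prodomain of most ADAMs and membrane-bound MMPs, averaged 35.7 ± 1.67 CPM in shPROX1 and 20.3 ± 0.955 CPM in control, a rise of 1.79-fold (log2 change 0.84 ± 0.09, adjusted p = 2.25e-07). The thrombospondins THBS2 (0.96 ± 0.07) and THBS1 (0.76) rose, with THBS2 at 104 ± 3.17 CPM in shPROX1 and 54.2 ± 4.41 CPM in control; they bind MMPs and the clearance receptor LRP1. The 3 lower genes all encode tetraspanins of the group that escorts ADAM10 to the cell surface. TSPAN33 had 32.4, 28.4, 29.1 and 28.1 CPM in shPROX1, against 81.3, 79.4, 79.8 and 83.2 CPM in control. The groups were far apart, with a log2 change of -1.43 ± 0.07 (adjusted p = 3.05e-13). TSPAN15 (-0.74 ± 0.19, overlapping groups) and TSPAN17 (-0.36 ± 0.12) also fell, whereas TSPAN5 (-0.12, adjusted p = 0.272) and TSPAN14 (0.12, adjusted p = 0.213) did not pass; these 4 and the 3 next genes were named after their values were seen. RHBDF1, RHBDF2 and FRMD8, the iRhoms and their partner that carry ADAM17, did not pass (log2 changes of 0.05, -0.05 and 0.03), nor did BSG, an inducer of MMPs, at 394 ± 16.5 CPM in shPROX1 and 417 ± 9.77 CPM in control.

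Of membrane proteins known to be shed by ADAM proteases, 18 of 26 were tested, 10 were higher (55.6%, against 17.3% of all tested genes) and 2 were lower (11.1%, against 17.9%), with a median log2 change of 0.30. The largest rises of the list were KITLG (34.6 ± 1.85 CPM in shPROX1, 6.97 ± 2.14 CPM in control, log2 change 2.33 ± 0.14), the ligand of the KIT receptor, and the receptor kinase AXL (149.6 ± 9.90 CPM in shPROX1, 41.4 ± 3.76 CPM in control, 1.88 ± 0.07). The Notch ligand JAG1 (1.38 ± 0.07) and HBEGF (1.11 ± 0.15), a growth factor that is released from its membrane precursor, rose as well. The 2 lower genes, named after their values were seen, were NOTCH3 (-0.83 ± 0.07) and PTK7 (-0.32 ± 0.05). APP, the one with the highest CPM of those that did not pass, averaged 558 ± 21.3 CPM in shPROX1 and 556 ± 10.0 CPM in control (0.03, adjusted p = 0.662). Since the list was chosen with earlier results of these data known, its shares are a description only. These are transcript levels, and shedding itself was not measured.

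Of matrix substrates of ADAMTS proteases, 9 of 16 were tested, 4 were higher and 4 were lower (44.4% each, against 17.3% and 17.9% of all tested genes; median log2 change -0.05). COL3A1, the chain of type III collagen, had 7813, 8093, 8043 and 8343 CPM in shPROX1, against 11388, 10764, 10739 and 10678 CPM in control. It fell with no overlap (log2 change -0.41 ± 0.02, adjusted p = 7.97e-12). The proteoglycan BGN (-0.64 ± 0.15) and the cartilage collagen COL2A1 (-0.50 ± 0.07) fell, while COL5A1 rose (0.35 ± 0.06). The BGN groups all but touched, at 25.1 CPM in the highest shPROX1 library and 25.2 CPM in control replicate 1. The remaining control libraries were at 32.9 to 48.8 CPM. FBN1, the main fibrillin, averaged 122 ± 7.10 CPM in shPROX1 and 129 ± 12.1 CPM in control and did not pass (-0.05, adjusted p = 0.559). The aggregating proteoglycan ACAN and the ADAMTS13 substrate VWF were below the filter.

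**Figure D4:**
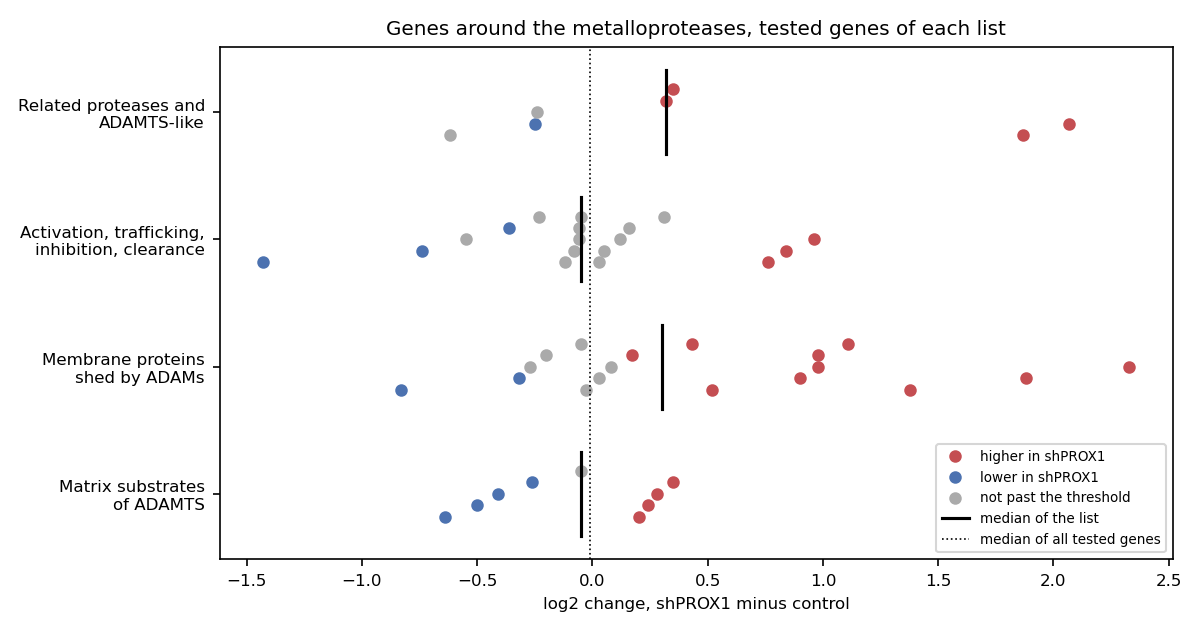
Log2 change (shPROX1 minus control) of the tested genes in the 4 lists around the metalloproteases; each point is a gene, the short line is the list's median and the dotted line the median of all tested genes (-0.01). Points right of 0 are higher in shPROX1. The shed membrane proteins have 10 genes called higher and 2 called lower of 18 tested, and the matrix substrates 4 of each of 9 tested. Of all tested genes, 17.3% were called higher and 17.9% lower. The lists were chosen with earlier results of these data known.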

How the data were processed

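RNA was measured in 8 libraries of total RNA from RD cells, 4 shPROX1 and 4 control, prepared with a kit that keeps the strand, per the labels' protocols. The labels give each library's group and number. What the authors deposited are raw read counts per gene, not normalized. Per the submitters' processing notes, FastQC, HISAT2, HTSeq and DESeq2 were used with the build GRCh38 (hg38). Their versions, the annotation and the strand setting of the counting were not given in the sources. Symbols, exon lengths and coding sequences were taken from GENCODE 29, which matched 58039 of 58302 genes.

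The members and lists were chosen with earlier results of these data known. The test was edgeR's (version 4.0.16, R 4.3.3) quasi-likelihood F test on the counts, with TMM factors, filterByExpr and no term other than group, adjusted by Benjamini-Hochberg over 12392 genes at a threshold of 0.05. CPM are counts divided by library totals. The standard error was derived from the F statistic, and 95% intervals use the t distribution with 22.3 degrees of freedom. A permutation of the labels gave p = 0.514 for a difference in library totals (exact, two-sided, n = 4 per group). Depth limits cover counting error only. Within groups, pairs of libraries differed by more than counting noise (chi-square divided by its degrees of freedom, 1.19 to 6.34), so none was treated as a copy. By-library values are given for called members, values for uncalled members with a mean of at least 5 CPM (and MMP23B, outside this rule), and, of each list, up to 4 called genes of at least 5 CPM with the largest change and the most abundant uncalled gene. Of 16 names in the list of related proteases, 1 was not matched. The scripts were checked on simulated data with known changes.

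The alternatives were other factors (RLE, upper quartile), no filter on counts or a minimum of 1 CPM in 4 libraries, limma voom 3.58.1, DESeq2 1.42.0, a block for the replicate number, leaving out each library in turn, a threshold of 0.01, and glmTreat against a 1.5-fold change. Python 3.11.15 was used with numpy 2.4.6, pandas 2.3.3, scipy 1.17.1 and matplotlib 3.10.9.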

Additional observations from a re-analysis of the deposited data

Results flagged for a closer look

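In 3 of 118 groups of 4 libraries, 1 library lay far from the other 3 for a named gene; chance flags about 1 in 20 such groups. ADAMTS7 in shPROX1 replicate 2 was at 1.71 CPM (7 counts), against 4.66 to 4.88 CPM in the other shPROX1 libraries; without it the log2 change was -0.94 (adjusted p = 0.00154). MMP16 in control replicate 4 was at 58.6 CPM (285 counts), against 47.7 to 49.3 CPM in the other control libraries; without it the log2 change was 0.29 (adjusted p = 0.00591). COL3A1 in control replicate 1 was at 11388 CPM, against 10678 to 10764 CPM in the other control libraries; without it the log2 change was -0.38.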

How the results depend on the processing

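Of the 28 tested members' log2 changes under the alternatives, 442 kept direction and side of the threshold, 25 lost the call, 4 gained it and 5 changed sign. DESeq2 called 3253 genes, with 7 members higher (without ADAMTS20 and MMP16) and 4 lower (without MMP15). Leaving out 1 library at a time gave 7 to 9 members higher, 5 to 7 lower and 3788 to 4292 of all genes called. A glmTreat test against a 1.5-fold change called 369 genes, with 2 members higher (ADAM9 and ADAMTS6) and 1 lower (ADAM28), since it asks for a larger change. Without control replicate 1, which stood apart, ADAMTS20 and MMP16 were lost, leaving 7 members higher and 5 lower. Without shPROX1 replicate 3, ADAM15 joined the higher and MMP11 the lower; without control replicate 2 TIMP3 joined the higher, and without control replicate 3 MMP11 and ADAMTS10 joined the lower. Uncalled genes near 0 changed sign: ADAM12 (-0.00 without shPROX1 replicate 3, -0.03 without control replicate 1, range -0.03 to 0.04), ADAMTS5 (0.02 without shPROX1 replicate 2, range -0.20 to 0.02), MMP14 (0.01 without shPROX1 replicate 3, 0.03 without control replicate 1, range -0.09 to 0.03), RHBDF1 (-0.09 without shPROX1 replicate 3, -0.10 without control replicate 2, range -0.10 to 0.16), RHBDF2 (0.07 without shPROX1 replicate 4, range -0.17 to 0.07) and ADAMTSL5 (0.02 without control replicate 3, range -0.56 to 0.02); the cause was not tested. The replicate numbers did not pair the libraries (correlations of deviations between same-numbered libraries of -0.0508 to 0.0501); with the replicate block 4187 genes, 9 higher and 5 lower members were called. The PROX1 difference was -9.85 CPM with the replicate block (exact p = 0.125, the smallest it allows) and -10.6 to -8.87 CPM without 1 library (exact p = 0.0571, the smallest 35 arrangements allow). Members that did not reach 2.39 CPM in 4 libraries were not tested in the main analysis; ADAM8 was called lower with the minimum of 1 CPM and ADAMTS10 as given above.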

Other observations

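COL1A2, a chain of type I collagen listed among the ADAMTS substrates, was below the filter and held 87 counts in shPROX1 replicate 4, against 6, 4 and 5 counts in the other shPROX1 libraries and 10, 2, 0 and 13 counts in the control libraries.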
